A study of Mus musculus with 15 samples.

Results

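The RNA levels of 41 genes linked to ribosome production were compared, and ribosome production itself was not measured. The genes were Myc, its partner Max and the polyamine enzymes Odc1 and Srm, the latter 2 well-known Myc targets. The others belong to the nucleolar machinery that makes ribosomal RNA and assembles ribosomal subunits. The members were matched by gene symbol. All 41 were found among the 54390 genes listed in the count tables, and 40 of them were among the 14237 genes with enough counts to be tested. The member left untested was Myc itself, whose counts were near 0 in every library.

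The study sequenced RNA of BV2 cells, an immortalised mouse microglial line, with and without the lipid receptor Trem2 and with and without cholesterol loading. WT non-foamy (n = 4) and Trem2-/- non-foamy cells (n = 3) were kept in media alone, and WT foamy (n = 4) and Trem2-/- foamy cells (n = 4) received 20 μg/ml soluble cholesterol overnight. Soluble cholesterol was complexed with methyl-beta-cyclodextrin, and no carrier is described for the media controls, so lipid and carrier cannot be told apart. Trem2-/- cells came from a Cas9-expressing BV2 clone that was given a Trem2 guide, selected with puromycin and cloned by limiting dilution. How many Trem2-/- clones were sequenced, and whether the WT cells passed through the same steps, is not given in the sources used here, so genotype and clone cannot be told apart. Replicates are numbered samples, nothing says that they were separate cultures, and the p-values measure the spread between these samples, which may be technical.

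The nucleolus is where RNA polymerase I transcribes the long precursor of ribosomal RNA. Small nucleolar ribonucleoproteins (snoRNPs) modify that precursor, and assembly factors fold and cut it into the small and the large ribosomal subunit. Myc paired with Max binds E-box sequences and is known for raising transcription of this machinery in growing cells. BV2 cells were immortalised with a virus that carries the v-raf and v-myc oncogenes, and the tables list mouse genes, so viral RNA has no entry of its own.

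Each library held 23538963 to 41683825 counts, of which 5.83% to 8.05% fell on mitochondrial genes. Replicates differed by more than counting noise in every pair. Trem2 RNA was at 327 to 415 CPM (counts scaled to the library's size with TMM factors) in WT and at 214 to 232 CPM in Trem2-/- libraries, without overlap. All 10 myeloid markers had a median over 1 CPM, whereas 4 of 6 homeostatic microglia markers, among them Tmem119 and Sall1, and 17 of 18 markers of other cell types were under 1 CPM. Library WT non-foamy 3 was the shallowest. Relative to the others of its group its median level was 0.22 higher on the log2 scale for genes with at most 2563 exonic bases and 0.16 lower for genes with over 7967, and WT foamy 1 sloped the other way (-0.18 and 0.13). In the 5 comparisons these medians lay between -0.07 and 0.09, and their part in the results was not tested.

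Trem2-/- cells held less RNA of most of the nucleolar module, and in such bulk samples fewer cells of a kind and less RNA per cell cannot be told apart. In non-foamy cells 34 of the 40 tested members were lower and 1, Polr1c, was higher at an adjusted p under 0.05 (edgeR quasi-likelihood test, Benjamini-Hochberg over all tested genes). Of all tested genes 22.6% were lower and 21.0% higher in that comparison. The median log2 fold change was -0.52 over the members and 0.02 over all tested genes. Below, ± gives the standard error (s.e.) of a log2 fold change from the edgeR fit. For 33 members every Trem2-/- non-foamy library lay under every WT non-foamy library, as for 23.5% of all tested genes. The 5 members not called were Max, Npm1, Nop14, Pes1 and Gnl3.

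The summed level of the members, leaving out the very abundant Npm1 and Ncl, separated the 4 groups. The sum was 5291 to 5613 CPM in WT non-foamy and 4588 to 5114 CPM in WT foamy libraries. It was 4029 to 4247 CPM in Trem2-/- foamy and 3747 to 3880 CPM in Trem2-/- non-foamy libraries. No groups overlapped in this sum. With Npm1 and Ncl included the sum did not separate the groups. It was then 11081 to 12522 CPM in WT non-foamy and 9740 to 11252 CPM in WT foamy libraries. In Trem2-/- libraries it was 9802 to 11117 CPM in foamy and 9582 to 10258.5 CPM in non-foamy ones. Of the 40 single members 30 had their group means in the order of the first sum, as did 18.8% of all tested genes.

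**Figure D1:**
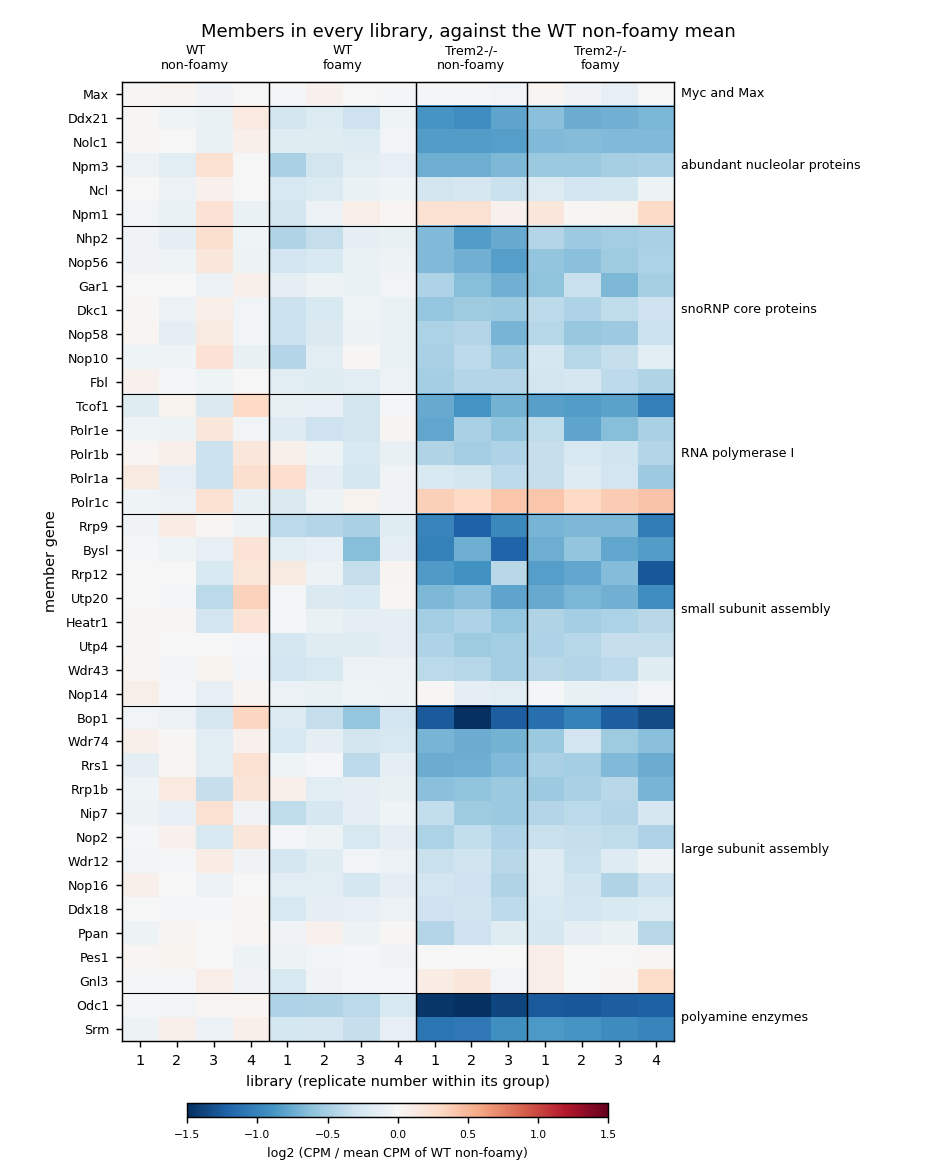
Each row is 1 tested member, grouped by role, and each column 1 library. Colour gives log2 of the level (CPM) over the mean of the 4 WT non-foamy libraries, values past the ends of the scale take the end colour, and most rows are blue in the Trem2-/- columns, with Polr1c as the row called higher.

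In foamy cells 28 members were lower and again 1, Polr1c, was higher in Trem2-/- than in WT cells, beside 15.9% lower and 14.3% higher among all tested genes. The median log2 fold change was -0.27 over the members and 0.00 over all tested genes. Of the 29 calls, 22 held under every alternative apart from a minimum fold change. Npm3 was lost without WT foamy 4, Fbl without WT foamy 4 or Trem2-/- foamy 4, and Nhp2, Polr1a, Polr1b, Wdr43 and Ppan without any one of 4 or 5 libraries. Scaling by total counts alone moved the median of all genes to -0.13 in either genotype comparison. It moved the share of lower ones among all called genes from 51.9% to 70.6% in non-foamy and from 52.6% to 76.7% in foamy cells, and gave 37 and 35 lower members with 1 higher in each.

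Myc, the transcription factor at the head of the module at chr15:61985391-61990374 (+) of GRCm38, was almost undetected. WT non-foamy libraries held 2, 2, 4 and 6 Myc counts, WT foamy libraries 4, 16, 8 and 2, Trem2-/- non-foamy libraries 0, 0 and 0, and Trem2-/- foamy libraries 2, 0, 0 and 4. A library with no count allows up to 3 counts, which is 0.0804 to 0.102 CPM without TMM scaling in the Trem2-/- non-foamy libraries. Every Myc count was even and both reads of a pair appear to have been counted, and 3 fragments are then 6 counts, or 0.161 to 0.204 CPM. Since the WT non-foamy libraries lay around such a limit too, no fold change is given. Without the filter on low counts edgeR gave Myc an adjusted p of 0.0386 between the non-foamy genotypes, from 14 counts in WT and 0 in Trem2-/- cells, and of 0.297 between the foamy ones, from 30 and 6 counts. These p-values treat the reads of a pair as separate counts, and the fragments behind them are fewer. The Myc relatives Mycn, Mycl and Mycs had no count in any of the 15 libraries, and Bmyc had 29 to 93 counts.

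Max, the partner through which Myc binds DNA, did not separate the groups. It was at 125, 127, 120 and 124 CPM in WT non-foamy libraries, 123, 129, 123 and 123 CPM in WT foamy, 123, 121 and 121 CPM in Trem2-/- non-foamy and 126, 120, 114 and 124 CPM in Trem2-/- foamy libraries. All groups overlapped, and the log2 difference between the genotypes was -0.03 ± 0.06 (adjusted p = 0.718) in non-foamy and -0.04 ± 0.05 (adjusted p = 0.592) in foamy cells. Under total counts alone it became -0.17 in either condition (adjusted p = 0.0330 and 0.0256).

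The promoters of the members were searched for the E-box of Myc and Max, CACGTG, which is its own reverse complement. RefSeq windows of the GRCm38.p6 build, from 250 bases before to 50 after a start site, were at hand for 33 of the 41 members, 36 windows in all. Myc, Npm1, Fbl, Tcof1, Rrp12, Rrs1, Bop1 and Srm had no window, and sequence outside the windows, such as introns farther in, was not searched. The motif was in 6 of the 36 windows (16.7%), against 1243 of 12415 windows of tested genes and 7.15% of all windows. In the part before the start site alone it was in 1 member window (2.78%), against 8.39% of those of tested genes. The related hexamer CACGCG, or CGCGTG on the other strand, was in 12 member windows (33.3%), against 16.9%. The 6 stretches with the E-box in capitals, read on the gene's strand, are shown because their genes include some that fell in non-foamy cells (Nop2, Utp4, Utp20 and Wdr43) and some not called (Max and Pes1).
Nop2, chr6:125131811-125131840 (+): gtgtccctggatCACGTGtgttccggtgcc
Utp4, chr8:106893643-106893672 (+): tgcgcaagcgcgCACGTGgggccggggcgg
Utp20, chr10:88826765-88826794 (-): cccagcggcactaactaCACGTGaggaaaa
Wdr43, chr17:71616220-71616249 (+): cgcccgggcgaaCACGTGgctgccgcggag
Max, chr12:76962234-76962263 (-): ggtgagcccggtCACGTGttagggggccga
Pes1, chr11:3963965-3963994 (+): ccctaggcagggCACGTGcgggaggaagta

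A match describes the letters in these windows, and no binding was measured. The first base of the motif lay 60 bases before the start site in Nop2 and 3 before it in Max. It lay 3 bases after the start in Pes1, 16 in Utp4, 18 in Wdr43 and 38 in Utp20. Carriers differed in their level: in non-foamy cells Utp20, a small subunit factor, had a log2 fold change of -0.70 ± 0.12 (adjusted p = 4.42e-05), whereas Pes1, a large subunit factor, was at -0.01 ± 0.06 (adjusted p = 0.901), or at -0.15 (adjusted p = 0.0355) under total counts alone.

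Odc1, ornithine decarboxylase, which catalyses the rate-limiting step of polyamine synthesis, had the largest fold change of the members in non-foamy cells. The gene lies at chr12:17544794-17551505 (+). Its level was 224, 219, 231 and 231 CPM in WT non-foamy libraries, 164, 165, 171 and 191 CPM in WT foamy, 82.5, 79.7 and 87.1 CPM in Trem2-/- non-foamy and 94.5, 93.8, 96.0 and 97.2 CPM in Trem2-/- foamy libraries. No groups overlapped, with Trem2-/- non-foamy libraries lowest. In non-foamy cells it fell by 63.3% (-1.45 ± 0.07, adjusted p = 1.93e-13), and in foamy cells it fell by 44.8% (-0.86 ± 0.06, adjusted p = 3.05e-10). It was lower in WT foamy than in WT non-foamy cells (-0.39 ± 0.06, adjusted p = 0.000359), and in Trem2-/- cells the difference was 0.20 ± 0.06 (adjusted p = 0.510). Of its exonic 50-base stretches 24.3% also occur in other gene models such as Gm7993, so its counts may hold or lack some reads.

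The 250 bases before the RefSeq start site of Odc1, the last of which GENCODE already counts to the gene, hold no CACGTG but 1 CGCGTG and 1 CACGCG, in capitals, which begin 180 and 101 bases before the start. They are printed because Odc1 carries the largest change.
Odc1, chr12:17544623-17544872 (+): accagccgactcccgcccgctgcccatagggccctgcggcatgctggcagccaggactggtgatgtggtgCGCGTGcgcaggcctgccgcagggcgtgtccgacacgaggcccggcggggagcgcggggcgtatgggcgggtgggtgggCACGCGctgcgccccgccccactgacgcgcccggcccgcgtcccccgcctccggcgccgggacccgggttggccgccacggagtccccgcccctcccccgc

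Srm, the spermidine synthase, uses the product of Odc1. It was at 117, 131, 116 and 130 CPM in WT non-foamy libraries, 103, 104, 97.4 and 114 CPM in WT foamy, 58.0, 58.6 and 65.1 CPM in Trem2-/- non-foamy and 67.9, 67.0, 64.4 and 62.1 CPM in Trem2-/- foamy libraries. WT and Trem2-/- libraries stood apart, and the Trem2-/- groups overlapped each other. The log2 fold change between genotypes was -1.03 ± 0.07 (adjusted p = 1.53e-10) in non-foamy and -0.67 ± 0.06 (adjusted p = 5.69e-08) in foamy cells.

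Among 10 further polyamine genes 5 were lower and 2 higher in Trem2-/- non-foamy cells, and 3 and 2 in foamy cells. Of all tested genes 22.6% were lower and 21.0% higher in non-foamy cells, and 15.9% and 14.3% in foamy cells. In non-foamy cells the spermine synthase Sms (-0.81 ± 0.08, adjusted p = 2.07e-08) and Dhps, the deoxyhypusine synthase that consumes spermidine (-0.71 ± 0.10, adjusted p = 5.85e-06), fell. Sat1, which acetylates spermidine and spermine for breakdown and export, rose (1.31 ± 0.09, adjusted p = 2.71e-10), as did the antizyme gene Oaz2 (0.54 ± 0.10, adjusted p = 6.86e-05).

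**Figure D2:**
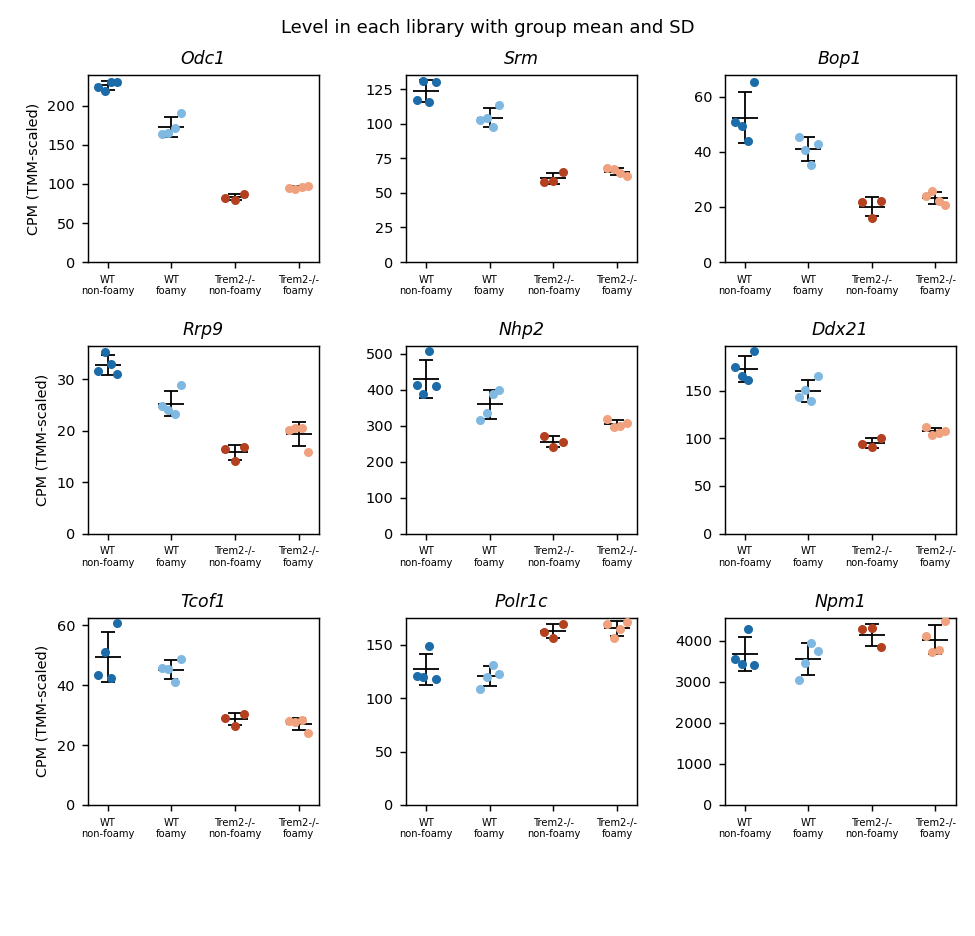
Levels (CPM after TMM scaling, axes from 0) of 9 members in each library, with the group mean and SD. Odc1 is highest in WT non-foamy and lowest in Trem2-/- non-foamy libraries, Polr1c is higher in every Trem2-/- library than in any WT library, and Npm1 overlaps between the genotypes.

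Of the 5 abundant nucleolar proteins 4 were lower in Trem2-/- non-foamy and 3 in Trem2-/- foamy cells. Npm1 had the highest level of the module per kilobase of exon, with a mean of 1378 CPM per kb in WT non-foamy cells, and Ncl had 246 CPM per kb. The name of this group does not rank RNA levels. Its member Ddx21 had 33.5 CPM per kb, whereas Nhp2 and Nop10 of the snoRNP group had 375 and 278. Ncl, nucleolin, which binds the nascent precursor, was at 2520, 2356, 2626 and 2515 CPM in WT non-foamy libraries, 2117, 2166, 2330 and 2390 CPM in WT foamy, 2071, 2105 and 1991 CPM in Trem2-/- non-foamy and 2165, 2044, 2092 and 2381 CPM in Trem2-/- foamy libraries. Its non-foamy genotypes did not overlap (-0.28 ± 0.07, adjusted p = 0.00221), and its foamy ones did (-0.05 ± 0.07, adjusted p = 0.590, or -0.18 with adjusted p = 0.00245 under total counts alone).

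Npm1, nucleophosmin, a nucleolar chaperone, was at 3556, 3434, 4283 and 3417 CPM in WT non-foamy libraries, 3035, 3467, 3935 and 3749 CPM in WT foamy, 4292, 4315 and 3843 CPM in Trem2-/- non-foamy and 4119, 3729, 3782 and 4489 CPM in Trem2-/- foamy libraries. The genotypes overlapped, with a log2 difference of 0.18 ± 0.10 (adjusted p = 0.142) in non-foamy and 0.18 ± 0.09 (adjusted p = 0.123) in foamy cells. Without WT non-foamy 3, its highest WT library, the former became 0.26 (adjusted p = 0.0140). Of its 50-base stretches 24.3% are shared with other gene models.

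Ddx21, an RNA helicase of the nucleolus, fell the most of this group in non-foamy cells. It was at 175, 165, 161 and 192 CPM in WT non-foamy libraries, 143, 151, 139 and 165 CPM in WT foamy, 93.8, 90.8 and 100 CPM in Trem2-/- non-foamy and 112, 104, 106 and 108 CPM in Trem2-/- foamy libraries. Every Trem2-/- library lay under every WT library (-0.87 ± 0.07, adjusted p = 2.77e-09 in non-foamy and -0.48 ± 0.07, adjusted p = 9.28e-06 in foamy cells). The snoRNP chaperone Nolc1 (-0.83 ± 0.06, adjusted p = 3.27e-10) and the Npm1 relative Npm3 (-0.71 ± 0.09, adjusted p = 5.50e-07) also fell in non-foamy cells. Npm3 shares 25.6% of its 50-base stretches with other gene models.

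All 7 snoRNP core proteins were lower in Trem2-/- non-foamy cells, with log2 fold changes from -0.75 to -0.46, and 6 were lower in foamy cells. Nhp2, which with Dkc1, Gar1 and Nop10 forms the particles that convert uridine to pseudouridine, fell the most in non-foamy cells. It was at 414, 388, 508 and 411 CPM in WT non-foamy libraries, 316, 336, 389 and 398 CPM in WT foamy, 271, 241 and 255 CPM in Trem2-/- non-foamy and 318, 295, 299 and 308 CPM in Trem2-/- foamy libraries. The non-foamy genotypes stood apart (-0.75 ± 0.09, adjusted p = 4.11e-07) and the foamy ones overlapped (-0.24 ± 0.08, adjusted p = 0.0298). The foamy call was lost without WT foamy 3 or 4 or Trem2-/- foamy 2 or 3.

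Fbl, fibrillarin, the methyltransferase of box C/D particles, fell the least of the 7 in non-foamy cells. It was at 141, 133, 128 and 135 CPM in WT non-foamy libraries, 120, 119, 119 and 126 CPM in WT foamy, 94.2, 99.3 and 98.9 CPM in Trem2-/- non-foamy and 111, 113, 103 and 98.4 CPM in Trem2-/- foamy libraries. The genotypes did not overlap in non-foamy (-0.46 ± 0.06, adjusted p = 2.55e-06) or foamy cells (-0.19 ± 0.06, adjusted p = 0.0155). In non-foamy cells its partners Nop56 (-0.73 ± 0.07, adjusted p = 3.98e-08) and Nop58 (-0.53 ± 0.08, adjusted p = 1.64e-05) fell, as did the pseudouridine synthase Dkc1 (-0.56 ± 0.07, adjusted p = 7.08e-07) and its partner Gar1 (-0.60 ± 0.09, adjusted p = 1.31e-05). Nop10 was the one not called in foamy cells (-0.13 ± 0.09, adjusted p = 0.258). Fbl shares 19.7% and Nop56 18.6% of their 50-base stretches with other gene models.

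Of the 5 polymerase I genes 4 were lower and Polr1c was higher in Trem2-/- cells, in non-foamy and in foamy cells. Tcof1, treacle, a cofactor of ribosomal RNA transcription, was at 43.5, 51.1, 42.4 and 60.7 CPM in WT non-foamy libraries, 45.8, 45.3, 41.0 and 48.8 CPM in WT foamy, 29.2, 26.5 and 30.3 CPM in Trem2-/- non-foamy and 28.1, 27.7, 28.3 and 24.2 CPM in Trem2-/- foamy libraries. No WT library was as low as any Trem2-/- library. The log2 fold change was -0.79 ± 0.10 (adjusted p = 1.85e-06) in non-foamy and -0.74 ± 0.10 (adjusted p = 3.58e-06) in foamy cells, and the difference between the responses to cholesterol was 0.05 ± 0.14 (adjusted p = 0.902).

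Polr1c, a subunit that polymerase I shares with polymerase III, was the lone member called higher. The gene lies at chr17:46243920-46248054 (-). Its level was 121, 120, 149 and 118 CPM in WT non-foamy libraries, 109, 120, 131 and 122 CPM in WT foamy, 162, 157 and 169 CPM in Trem2-/- non-foamy and 169, 156, 165 and 171 CPM in Trem2-/- foamy libraries. The Trem2-/- libraries stood above all WT libraries, by a log2 fold change of 0.36 ± 0.08 (adjusted p = 0.000678) in non-foamy and 0.45 ± 0.07 (adjusted p = 5.40e-05) in foamy cells. In non-foamy cells the subunits Polr1e (-0.62 ± 0.11, adjusted p = 0.000127), Polr1b (-0.48 ± 0.09, adjusted p = 0.000178) and Polr1a, the largest one (-0.30 ± 0.12, adjusted p = 0.0473), fell. The libraries of Polr1a overlapped, and its call was lost without WT non-foamy 1 or 4 or any one of the Trem2-/- non-foamy libraries.

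Of 15 further polymerase I genes 8 were lower and 1 higher in Trem2-/- non-foamy cells, and 3 and 2 in foamy cells. The foamy counts were 20.0% lower and 13.3% higher, near the 15.9% and 14.3% of all tested genes. In non-foamy cells the shared polymerase subunits Polr2l (-0.78 ± 0.14, adjusted p = 7.98e-05) and Polr2e (-0.71 ± 0.08, adjusted p = 1.42e-07) and the upstream binding factor Ubtf (-0.62 ± 0.07, adjusted p = 2.90e-07) fell. Taf1d, a subunit of the selectivity factor, was the one that rose (0.41 ± 0.10, adjusted p = 0.00194).

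**Figure D3:**
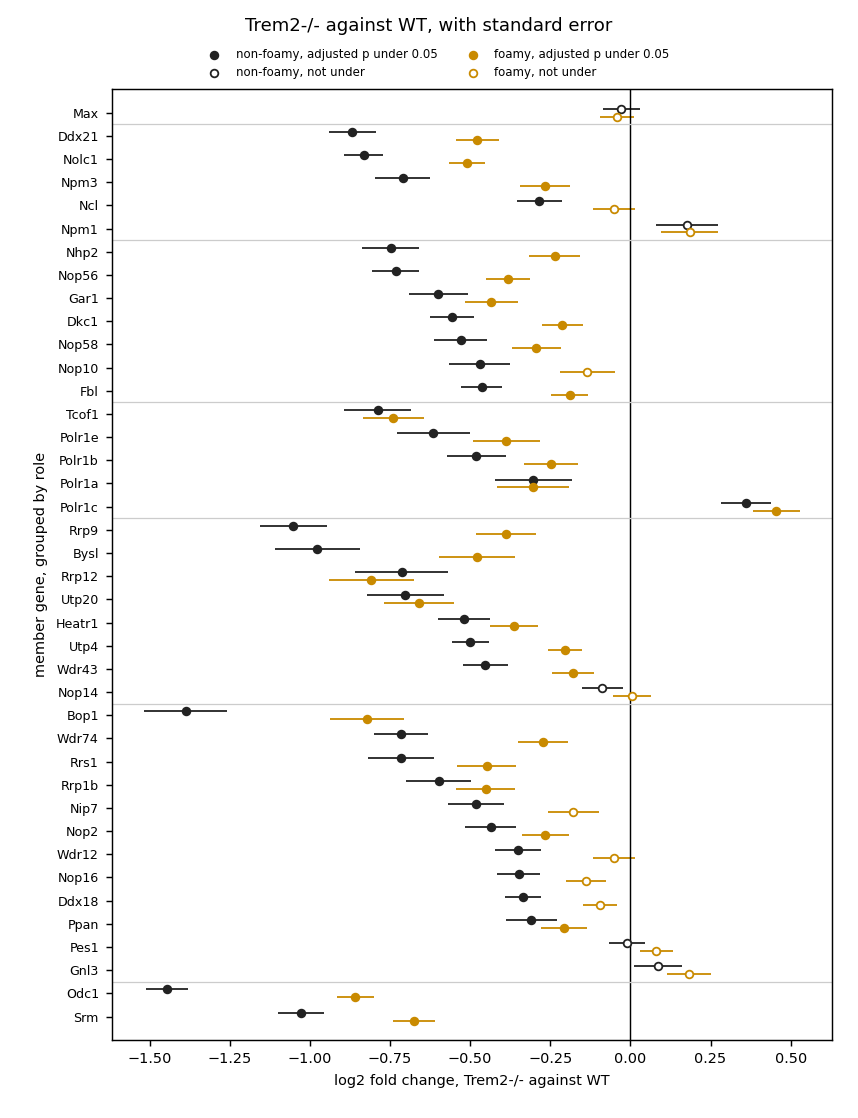
Log2 fold change of Trem2-/- against WT for each tested member with its standard error from the edgeR fit, black in non-foamy and gold in foamy cells, filled where the adjusted p was under 0.05. Most points lie left of 0, and Odc1 and Bop1 lie farthest left in non-foamy cells.

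Of the 8 small subunit assembly genes 7 were lower in Trem2-/- non-foamy and 7 in Trem2-/- foamy cells. Rrp9, a protein of the U3 particle that directs early cuts of the precursor, fell the most in non-foamy cells. It was at 31.7, 35.3, 33.1 and 31.0 CPM in WT non-foamy libraries, 24.8, 24.1, 23.3 and 28.8 CPM in WT foamy, 16.4, 14.1 and 16.8 CPM in Trem2-/- non-foamy and 20.2, 20.5, 20.6 and 15.8 CPM in Trem2-/- foamy libraries. All WT libraries lay above all Trem2-/- libraries, and within WT cells the foamy libraries lay under the non-foamy ones. The log2 fold change between genotypes was -1.05 ± 0.10 (adjusted p = 3.26e-08) in non-foamy and -0.39 ± 0.09 (adjusted p = 0.00320) in foamy cells.

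Utp4, part of an early complex on the precursor, was at 161, 157, 159 and 155 CPM in WT non-foamy libraries, 131, 139, 139 and 143 CPM in WT foamy, 115, 110 and 111 CPM in Trem2-/- non-foamy and 115, 117, 124 and 123 CPM in Trem2-/- foamy libraries. The genotypes stood apart in either condition, and the Trem2-/- groups came within rounding of each other at 115 CPM. The log2 fold change was -0.50 ± 0.06 (adjusted p = 2.48e-07) in non-foamy and -0.20 ± 0.05 (adjusted p = 0.00470) in foamy cells.

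Nop14, another early factor, was the one not called. It was at 108, 100, 93.3 and 105 CPM in WT non-foamy libraries, 95.4, 95.3, 97.6 and 96.5 CPM in WT foamy, 103, 92.6 and 91.4 CPM in Trem2-/- non-foamy and 100, 94.2, 93.3 and 98.7 CPM in Trem2-/- foamy libraries. All its groups overlapped, with a log2 difference between genotypes of -0.09 ± 0.06 (adjusted p = 0.285) in non-foamy cells (-0.23, adjusted p = 0.0153, under total counts alone) and 0.01 ± 0.06 (adjusted p = 0.955) in foamy cells. Bysl, which shares 9.37% of its exonic bases with Ccnd3 on the opposite strand, fell in non-foamy cells (-0.98 ± 0.13, adjusted p = 2.44e-06), as did Rrp12, a factor of subunit export (-0.71 ± 0.15, adjusted p = 0.000340), and Heatr1 (-0.52 ± 0.08, adjusted p = 1.96e-05).

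Of 43 further small subunit genes 22 were lower and 0 higher in Trem2-/- non-foamy cells, and 16 and 3 in foamy cells. Noc4l fell the most (-1.05 ± 0.10, adjusted p = 2.43e-08, non-foamy). The 3 higher ones in foamy cells were Utp3 (0.28 ± 0.07, adjusted p = 0.00227), Nob1 (0.18 ± 0.07, adjusted p = 0.0453) and Utp14a (0.18 ± 0.07, adjusted p = 0.0486).

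Of the 12 large subunit assembly genes 10 were lower in Trem2-/- non-foamy and 6 in Trem2-/- foamy cells. Bop1, which with Pes1 and Wdr12 forms the PeBoW complex, fell the most. The gene lies at chr15:76452989-76477277 (-). Its level was 50.8, 49.3, 44.0 and 65.4 CPM in WT non-foamy libraries, 45.5, 40.8, 35.1 and 42.9 CPM in WT foamy, 21.8, 16.1 and 22.2 CPM in Trem2-/- non-foamy and 24.0, 25.9, 22.3 and 20.6 CPM in Trem2-/- foamy libraries. Every Trem2-/- library lay under every WT library. Bop1 fell by 61.8% in non-foamy cells (-1.39 ± 0.13, adjusted p = 1.17e-08) and fell by 43.4% in foamy cells (-0.82 ± 0.12, adjusted p = 1.09e-05). Its partner Wdr12 fell in non-foamy cells (-0.35 ± 0.07, adjusted p = 0.000341) and was at -0.05 ± 0.07 (adjusted p = 0.592) in foamy cells. Pes1 was at 0.08 ± 0.05 (adjusted p = 0.261) in foamy cells, and 23.3% of its 50-base stretches are shared with other gene models.

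Gnl3, nucleostemin, a nucleolar GTPase of dividing cells, had the highest log2 difference of this group. It was at 214, 213, 232 and 209 CPM in WT non-foamy libraries, 184, 210, 213 and 214 CPM in WT foamy, 235, 245 and 211 CPM in Trem2-/- non-foamy and 232, 217, 220 and 262 CPM in Trem2-/- foamy libraries. In foamy cells every Trem2-/- library lay above every WT library, and the test missed the threshold (0.18 ± 0.07, adjusted p = 0.0519). It passed with DESeq2, with at least 10 counts required in every library, and without Trem2-/- foamy 2 or 3 (lowest adjusted p = 0.0354). In non-foamy cells the groups overlapped (0.09 ± 0.08, adjusted p = 0.383). The log2 fold changes of the remaining called genes ran from -0.72 for Wdr74 to -0.31 for Ppan in non-foamy cells.

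Of 44 further large subunit genes 34 were lower and 2 higher in Trem2-/- non-foamy cells, and 17 and 2 in foamy cells. In non-foamy cells Ebna1bp2 (-0.69 ± 0.07, adjusted p = 6.57e-08) and Eif6, which keeps the subunits apart until maturation (-0.68 ± 0.08, adjusted p = 2.16e-07), fell. The higher ones were Nop53 (0.35 ± 0.07, adjusted p = 0.000204) and Nsa2 (0.41 ± 0.09, adjusted p = 0.000695). All 11 tested genes of the exosome, which trims the precursor, were lower in non-foamy and 6 in foamy cells, led by Exosc2 (-0.83 ± 0.07, adjusted p = 5.07e-09, non-foamy).

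Genes of cytoplasmic ribosomal proteins mostly differed from the assembly factors in direction, and those of mitochondrial ribosomal proteins mostly did not. Of 83 tested cytoplasmic ribosomal protein genes 61 were higher and 2 lower in Trem2-/- non-foamy cells, with a median log2 fold change of 0.36 (0.23 with 52 higher under total counts alone), and 46 were higher and 1 lower in foamy cells. These genes have many near-identical copies, and how reads with several matches were counted is not stated, so none is named. Of 76 mitochondrial ribosomal protein genes 49 were lower and 4 higher in non-foamy cells, and 15 and 8 in foamy cells. The foamy counts were 19.7% lower and 10.5% higher, near the 15.9% and 14.3% of all tested genes.

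**Figure D4:**
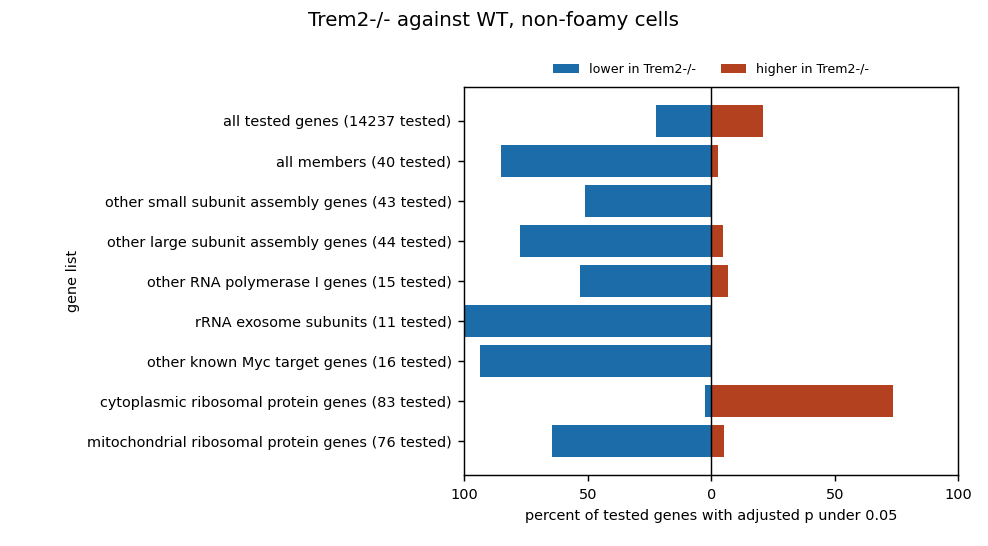
Percent of the tested genes of each list that were lower or higher in Trem2-/- than in WT non-foamy cells at an adjusted p under 0.05. Of the members 85.0% were lower against 22.6% of all tested genes, and most cytoplasmic ribosomal protein genes were higher.

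Of 16 other known Myc targets 15 were lower in Trem2-/- non-foamy and 9 in foamy cells, and 0 were higher. These targets, like the other lists, were chosen with earlier results of these data known, so such counts are descriptive only. Cad, which begins pyrimidine synthesis, fell the most (-1.32 ± 0.16, adjusted p = 7.39e-07, non-foamy), followed by the nucleotide kinase Nme1 (-1.14 ± 0.10, adjusted p = 5.41e-09). Of 12 tested partners and relatives of Myc 5 were higher and 2 lower in non-foamy cells, and 3 and 1 in foamy cells. Among all tested genes 21.0% were higher and 22.6% lower in non-foamy cells, and 14.3% and 15.9% in foamy cells. In non-foamy cells the Max partners Mxd4 (0.83 ± 0.09, adjusted p = 1.89e-07) and Mxd1 (0.79 ± 0.09, adjusted p = 1.95e-07), which repress E-box genes, rose, whereas their relative Mxd3 (-1.23 ± 0.22, adjusted p = 7.56e-05) and Mycbp (-0.89 ± 0.12, adjusted p = 2.48e-06) fell.

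Proliferation genes moved with the module. All 15 on the list were lower in Trem2-/- cells in either condition, and their summed level was 3283 to 3491 CPM in WT non-foamy, 2916 to 3181 CPM in WT foamy, 1994 to 2105 CPM in Trem2-/- foamy and 1892 to 1990 CPM in Trem2-/- non-foamy libraries. Of the 10 myeloid markers 8 were higher in Trem2-/- cells in either condition, and their summed level was 6851 to 8467 CPM in WT non-foamy and 11957 to 12610 CPM in Trem2-/- non-foamy libraries. Of the 6 homeostatic microglia markers 4 were tested, with 2 lower and 1 higher in Trem2-/- cells in either condition. Most of the 6 had a median under 1 CPM. Markers of other cell types summed to 1.61 to 2.81 CPM, and 10 of the 18 were at 0 in all libraries. The part of these lists in the lower level of the members was not tested.

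Fewer members were called in the response to cholesterol than between genotypes. In WT cells 4 members fell, Odc1, Rrp9, Srm and Utp4, beside 1.14% lower among all tested genes, and 0 rose (1.66% of all tested genes). Of the 40 tested members 39 lay under 0, as did 48.8% of all tested genes, with a median log2 fold change of -0.15 against 0.01. In Trem2-/- cells 0 members were called by edgeR or DESeq2, beside 0.14% of all tested genes with edgeR and 0.379% with DESeq2. There 10 of the 40 members had an unadjusted p under 0.05, as did 6.45% of all tested genes, and 34 lay above 0, as did 51.3% of all tested genes, with a median of 0.10. The responses share no library, and 34 of 40 members were lower in WT foamy and higher in Trem2-/- foamy cells, as were 31.5% of all tested genes. Other lists leaned the same way. In the WT response 15 of 15 proliferation genes, 16 of 16 other Myc targets and 73 of 76 mitochondrial ribosomal protein genes lay under 0. In the Trem2-/- response 13, 14 and 70 of them lay above 0. Of 83 cytoplasmic ribosomal protein genes 67 lay above 0 in the WT response and 59 under 0 in the Trem2-/- response.

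The calls in WT cells were near the threshold apart from that of Odc1. They were Rrp9 (-0.37 ± 0.09, adjusted p = 0.0300), Srm (-0.24 ± 0.06, adjusted p = 0.0403) and Utp4 (-0.20 ± 0.05, adjusted p = 0.0445). In Trem2-/- cells the same genes were at 0.29 ± 0.10 (adjusted p = 0.654), 0.11 ± 0.07 (adjusted p = 0.857) and 0.10 ± 0.06 (adjusted p = 0.825). Odc1 was called under each of 15 alternatives. Without WT non-foamy 1 or WT foamy 1, 2 or 3 the count was 1, without WT non-foamy 2 or 4 it was 2, and without WT foamy 4 it was 7. DESeq2 called 12, beside 6.29% of all tested genes.

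**Figure D5:**
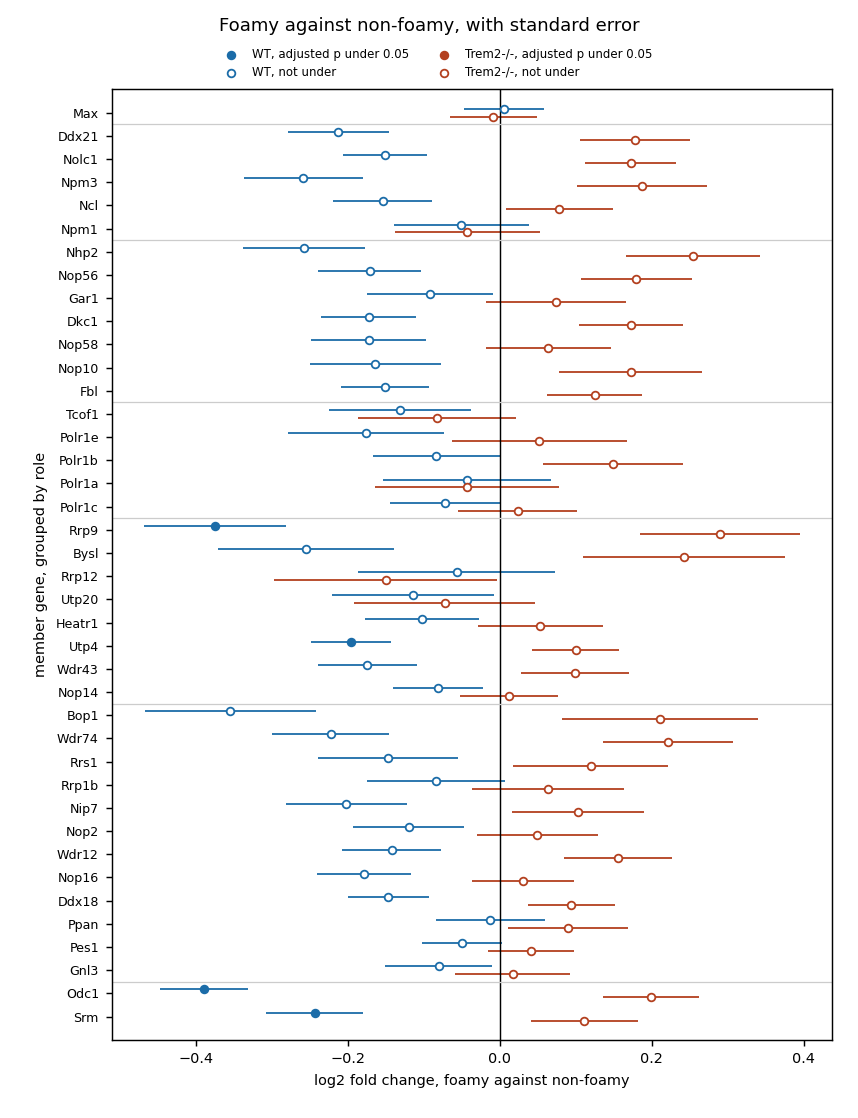
Log2 fold change of foamy against non-foamy cells for each tested member with its standard error from the edgeR fit, blue in WT and red in Trem2-/- cells, filled where the adjusted p was under 0.05. Most blue points lie left and most red points right of 0, and 4 blue points and 0 red points are filled.

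The test of the difference between the responses called 10 members. In all 10 the log2 response to cholesterol was higher in Trem2-/- than in WT cells. Their levels were called lower in Trem2-/- than in WT cells in either condition. Among all tested genes the difference was called higher for 1.99% and lower for 1.64%. The median difference was 0.24 over the members and 0.00 over all tested genes. It was 0.33 over the 16 other Myc targets, with 5 called higher, and 0.28 over the 15 proliferation genes, also with 5. Over 11 exosome genes it was 0.28 with 0 called, and over 76 mitochondrial ribosomal protein genes 0.25 with 4. It was 0.16 and 0.15 over the further small and large subunit genes, with 1 called in each. Over cytoplasmic ribosomal protein genes it was -0.08, with 0 called. Among the members Rrp9 had the largest difference (0.66 ± 0.14, adjusted p = 0.00996), followed by Odc1 (0.59 ± 0.09, adjusted p = 0.000296) and Nhp2 (0.51 ± 0.12, adjusted p = 0.0195). Npm3 (0.44), Wdr74 (0.44), Ddx21 (0.39), Srm (0.35), Dkc1 (0.34), Nolc1 (0.32) and Utp4 (0.29) had adjusted p-values from 0.0292 to 0.0403 with edgeR. By role these were 3 of 5 abundant nucleolar proteins, 2 of 7 snoRNP proteins, 2 of 8 small subunit and 1 of 12 large subunit genes, both polyamine enzymes and 0 of 5 polymerase I genes.

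DESeq2 called 15 differences, beside 6.8% of all tested genes. Of the 10 with edgeR, those of Odc1 and Rrp9 were called under each of 21 alternatives. The count was 2 without Trem2-/- non-foamy 2, 3 without Trem2-/- non-foamy 1 or WT foamy 2, and 4 without Trem2-/- non-foamy 3 or Trem2-/- foamy 3. It was 5 without WT non-foamy 1 or 4, WT foamy 1 or Trem2-/- foamy 1, and 6 without WT foamy 3. Over genes of any function the median difference was 0.09 for those with at most 2563 exonic bases and -0.07 for those with over 7967. Under total counts alone the share of lower ones among all called genes moved from 45.2% to 29.7% here and from 40.6% to 58.2% in the WT response.

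Genes of small nucleolar RNAs (snoRNAs) lay inside some members, a feature that the choice of members did not use. Of the 40 tested members 8 (20.0%) enclose an annotated snoRNA gene on their own strand, against 1.77% of 11266 tested protein-coding genes. Nop56 encloses 5 and Ncl 3. Strand and the handling of multiple matches were not stated, so reads of these RNAs or of near-identical copies may add to some members. The 33 members with under 10% of their 50-base stretches shared, a split made after the annotation was seen, gave 29 lower and 1 higher in Trem2-/- non-foamy and 24 and 1 in foamy cells. The tested members left out of that split were Ddx18 (55.9% shared), Npm3, Npm1, Odc1, Pes1, Fbl and Nop56.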

How the data were processed

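Per the labels and methods, total RNA of 15 BV2 libraries was prepared with a TruSeq kit and aligned and counted by the authors with HISAT2 and featureCounts on the mouse mm10 genome. The authors deposited raw gene counts, 1 table per library. Between 82.7% and 83.9% of genes with 1 to 10 counts had an even count, so both reads of a pair appear to have been counted. Members and lists were chosen with earlier results of these data known. Counts were fitted with edgeR 4.0.16 in R 4.3.3 (TMM factors, genes passing filterByExpr with a minimum count of 10, quasi-likelihood test over all 15 libraries, 1 term per group), and p-values were Benjamini-Hochberg adjusted over 14237 genes, which held 99.97% of counts. Calls are at an adjusted p under 0.05. Of 5 comparisons, 2 were between genotypes, 2 between treatments and 1 between the responses. The study used DESeq2, which (1.42.0) served as an alternative. Standard errors follow from the log2 fold change and F. The code was tested on simulated data. Gene models, lengths and shared stretches came from GENCODE (GRCm38). Values in every library are given for Myc, Max, Odc1, Srm, Ncl and Npm1, the extreme members of each role in the non-foamy genotype comparison and members called in a response to cholesterol. Of each other list at most 4 genes are named, those with the largest change and those against the majority. The limit for 0 counts covers counting error only.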

Additional observations from a re-analysis of the deposited data

Results flagged for a closer look

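In groups of 4 libraries, 12 of 123 member levels had 1 library far from the other 3, where chance flags about 1 in 20. Library WT non-foamy 3, the shallowest, stood high in 5 of them, with 4283 CPM for Npm1 (others 3417 to 3556), 407 CPM for Nop56, 358 CPM for Nop10, 149 CPM for Polr1c and 22.0 CPM for Polr1e. In that library genes with at most 2563 exonic bases were 0.22 higher on the log2 scale than in the others of its group. Nop10 (1109 exonic bases) and Polr1c (2278) are that short, whereas Npm1 (2665), Polr1e (3897) and Nop56 (4099) are longer. The part of gene length in the 5 levels was not tested. Trem2-/- foamy 4 stood low for Tcof1 (24.2 CPM) and Rrp9 (15.8 CPM) and high for Nip7 (124 CPM). The remaining ones were Max in WT foamy 2 (129 CPM), Fbl in WT foamy 4 (126 CPM), Bysl in WT foamy 3 (11.2 CPM) and Gnl3 in WT foamy 1 (184 CPM).

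The response to cholesterol differed between the genotypes for 10 members by the edgeR test of the difference. The log2 fold change of foamy against non-foamy cells was higher in the Trem2-/- than in the WT line by 0.66 for Rrp9, 0.59 for Odc1, 0.51 for Nhp2, 0.44 for Npm3, 0.44 for Wdr74, 0.39 for Ddx21, 0.35 for Srm, 0.34 for Dkc1, 0.32 for Nolc1 and 0.29 for Utp4.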

How the results depend on the processing

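Of the calls, 34 of 35 between non-foamy genotypes, 22 of 29 between foamy genotypes, 1 of 4 in the WT response and 2 of 10 differences of responses held under every alternative that set no minimum fold change, and 0 changed sign. With 1 library left out the counts ran from 34 to 36, from 23 (without WT foamy 4) to 29, from 1 to 7 and from 2 to 11 in that order, and stayed at 0 in the Trem2-/- response. The WT response gave 1 member with a replicate block, 2 with only the libraries of the groups compared and 12 with DESeq2. The difference of the responses gave 5 with the replicate block and 15 with DESeq2. Requiring a log2 change past 1 in size left 4 members between non-foamy genotypes and 0 elsewhere. Replicate numbers showed no clear pairing of the samples. Same-numbered libraries of different groups had correlations of deviations from -0.105 to 0.143, and differently numbered ones from -0.233 to 0.167. The replicate block gave 34 and 29 members between genotypes, beside the lower counts given above for the WT response and the difference of the responses. Over all genes the WT response gave 399 calls with edgeR, 896 with DESeq2, 144 with only its own libraries and 146 to 526 with 1 library left out. The Trem2-/- response gave 20 and, with DESeq2, 54. The difference of the responses gave 518, 968 with DESeq2, 294 with the block and 201 to 661 with 1 library left out. Apart from how each alternative is built, the cause of these shifts was not tested. With the part of the promoter before the start alone, E-box shares went from 16.7% to 2.78% of member windows and from 7.15% to 6.02% of all. Groups held 3 or 4 libraries, with a biological coefficient of variation of 10.2%, and Myc counts were too low for the filter.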
